A study of Sus scrofa with 24 samples.

Results

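Longissimus dorsi muscle of pigs given soybean oil was compared with that of pigs given olive oil. These are 12 of the 24 arrays of the study, 6 per oil, chosen as the samples whose titles name either oil, with 3 gilts (young females) and 3 barrows (castrated males) each. All pigs were Landrace × Large White × Duroc crossbreds that weighed about 71 kg and were about 130 days old when allotted. The feed held the oil at 3.0%; the remaining 12 arrays came from pigs given beef tallow or coconut oil at the same level, and the labels name no group without added fat. There were 24 pens, with 3 pigs per pen and 6 pens per fat. Neither the pens of the sampled pigs nor the length of feeding is known from the labels, and each pig counts as an independent replicate here. RNA was measured on Affymetrix porcine arrays, 1 per pig. On these a probe set is a group of probes that reads 1 transcript, or several of similar sequence.

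Soybean oil is rich in linoleic acid, a polyunsaturated fatty acid with several double bonds, and olive oil in oleic acid, a monounsaturated one. Polyunsaturated fatty acids are known to restrain SREBP1, the transcription factor that turns on fatty acid synthesis, and they bind the PPAR receptors, which turn on fatty acid uptake and oxidation. They are also the precursors of prostaglandins and other eicosanoids. Muscle holds fat both inside its fibres and in adipocytes between them, so whole tissue RNA carries both.

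The tissue and sex labels were checked on defining genes. Creatine kinase gene CKM, an abundant muscle transcript, had median signals of 44449 with soybean oil and 47565 with olive oil, and 14 of the 14 measured skeletal muscle identity genes lay above the signal filter used for named genes (a mean of 94.1 over all 24 arrays, their 40th percentile). The Y-linked gene EIF1AY read 1673 to 1999 in the 6 barrows and 3.71 to 29.1 in the 6 gilts, so the sexes matched their labels. Correlations between pairs of the 12 arrays ran from 0.900 to 0.938. The median log2 signal of an array was 7.29 ± 0.07 with soybean oil and 7.24 ± 0.09 with olive oil (SD, n = 6 each; exact permutation p = 0.205, oils permuted within sex, two-sided). RNA integrity was read from the ratio of 3' to 5' signals of GAPDH, which differed by -0.05 on the log2 scale between the oils (exact permutation p = 0.145), and that of actin by 0.15 (exact permutation p = 0.32); the smallest p this design allows is 0.005.

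No probe set passed the adjusted threshold between the oils. Over all 23999 probe sets other than controls, limma with sex as a covariate called 0 (0.0%) at a Benjamini-Hochberg adjusted p under 0.05. At an unadjusted p under 0.05 there were 886 (3.69%), fewer than the 1200 (5.0%) that chance gives on average, of which 594 (2.48%) were higher and 292 (1.22%) lower with soybean oil. That split moved with the scaling of the arrays: 67.0% of these probe sets were higher on the deposited scale, against 47.3% of 867 after quantile normalization and 51.0% of 867 with each array centred on its median. With 1 probe set for each of 6765 genes, 175 (2.59%) had an unadjusted p under 0.05, of which 121 (1.79%) were higher and 54 (0.798%) lower. The lowest adjusted p was 0.27, for MAGOH, a subunit of the exon junction complex, whose mean signal of 29.9 was below the filter. Leaving out 1 pig gave 1 call without gilt 3 (soybean oil, TEK), 1 without gilt 7 (olive oil, MAGOH) and 1 without gilt 12 (olive oil, MYF6), each below the filter, and 0 without any of the other 9.

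The measurements bounded most differences. Among the 14399 probe sets above the filter, the median size of the log2 difference was 0.11 and 42 exceeded 1 (2-fold). The median half-width of the 95% interval was 0.43, or 1.35-fold, and for 12993 probe sets (90.2%) the whole interval lay within 2-fold in either direction. Intervals were unadjusted and took the 6 pigs of an oil as independent. In the text a difference is soybean oil minus olive oil on the scale of log2(signal + 1), which understates differences of dim genes, and a signal is in deposited linear units and is not compared between probe sets.

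Genes of fatty acid synthesis varied widely among pigs of the same oil, and no difference between oils passed the test. SCD encodes stearoyl-CoA desaturase, which makes oleic acid from stearic acid, and its signal ran from 261 to 7435 with soybean oil (median 789.6) and from 168 to 5464 with olive oil (median 995). The highest and the lowest of the 12 pigs lay 1 in each oil, and the ranges overlapped almost wholly. The difference was -0.20 ± 0.79 (SE, n = 6 per oil; 95% interval -1.93 to 1.53). FASN, the fatty acid synthase, ran from 265 to 4439 with soybean oil (median 603) and from 207 to 1636 with olive oil (median 901), a difference of 0.12 ± 0.61 (SE, n = 6 per oil; 95% interval -1.22 to 1.46). Its 2 highest pigs were soybean oil barrows and its lowest an olive oil gilt. The other 2 probe sets of FASN above the filter gave -0.30 and 0.10. ELOVL6, which lengthens palmitic to stearic acid, ran from 745 to 3666 with soybean oil (median 1235) and from 443 to 3395 with olive oil (median 1334) and differed by 0.15 ± 0.55 (SE, n = 6 per oil; 95% interval -1.06 to 1.35). The other 3 probe sets of ELOVL6, all above the filter, gave 0.16 to 0.32. For SCD, FASN and ELOVL6 the intervals still include differences of 2-fold in either direction.

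FADS1, the delta-5 desaturase that works on polyunsaturated fatty acids, varied less among pigs, at a dim probe set. Its mean signal over all 24 arrays was 94.7, barely above the filter of 94.1. Its signal ran from 68.7 to 107 with soybean oil (median 96.2) and from 50.5 to 103 with olive oil (median 83.4), with 5 soybean oil pigs at 94.9 or above. The difference was 0.23 ± 0.16 (SE, n = 6 per oil; 95% interval -0.13 to 0.59), so that a difference of 2-fold in either direction lay outside the interval. The partner desaturase FADS2, the acetyl-CoA carboxylase gene ACACA and SREBF1, which encodes SREBP1, were below the filter, with differences of 0.82 ± 0.73 (SE), -0.27 ± 0.46 (SE) and -0.44 ± 0.51 (SE). Of 19 listed SREBP1 targets and genes of fatty acid synthesis, 13 were measured: 0 passed the adjusted threshold in either direction and 0 had an unadjusted p under 0.05. Their median difference was 0.12, with 7 of 13 above 0, beside 0.03 and 58.0% above 0 over all 6765 genes.

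MID1IP1 belongs to the same pathway. It encodes a protein that promotes the assembly and activity of acetyl-CoA carboxylase, and its signal ran from 558 to 1748 with soybean oil (median 1297) and from 891 to 3189.5 with olive oil (median 1958). All 3 olive oil barrows (2614 to 3189.5) lay above all 3 soybean oil barrows (1412 to 1748), while in gilts the oils overlapped. The difference was -0.63 ± 0.21 (SE, n = 6 per oil; 95% interval -1.09 to -0.17), made of -0.35 in gilts and -0.91 in barrows, and did not pass the adjusted threshold (limma, adjusted p = 0.99989). In the pigs on the other fats the medians were 1044 with beef tallow (861 to 1180) and 1333 with coconut oil (949 to 3411).

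**Figure D1:**
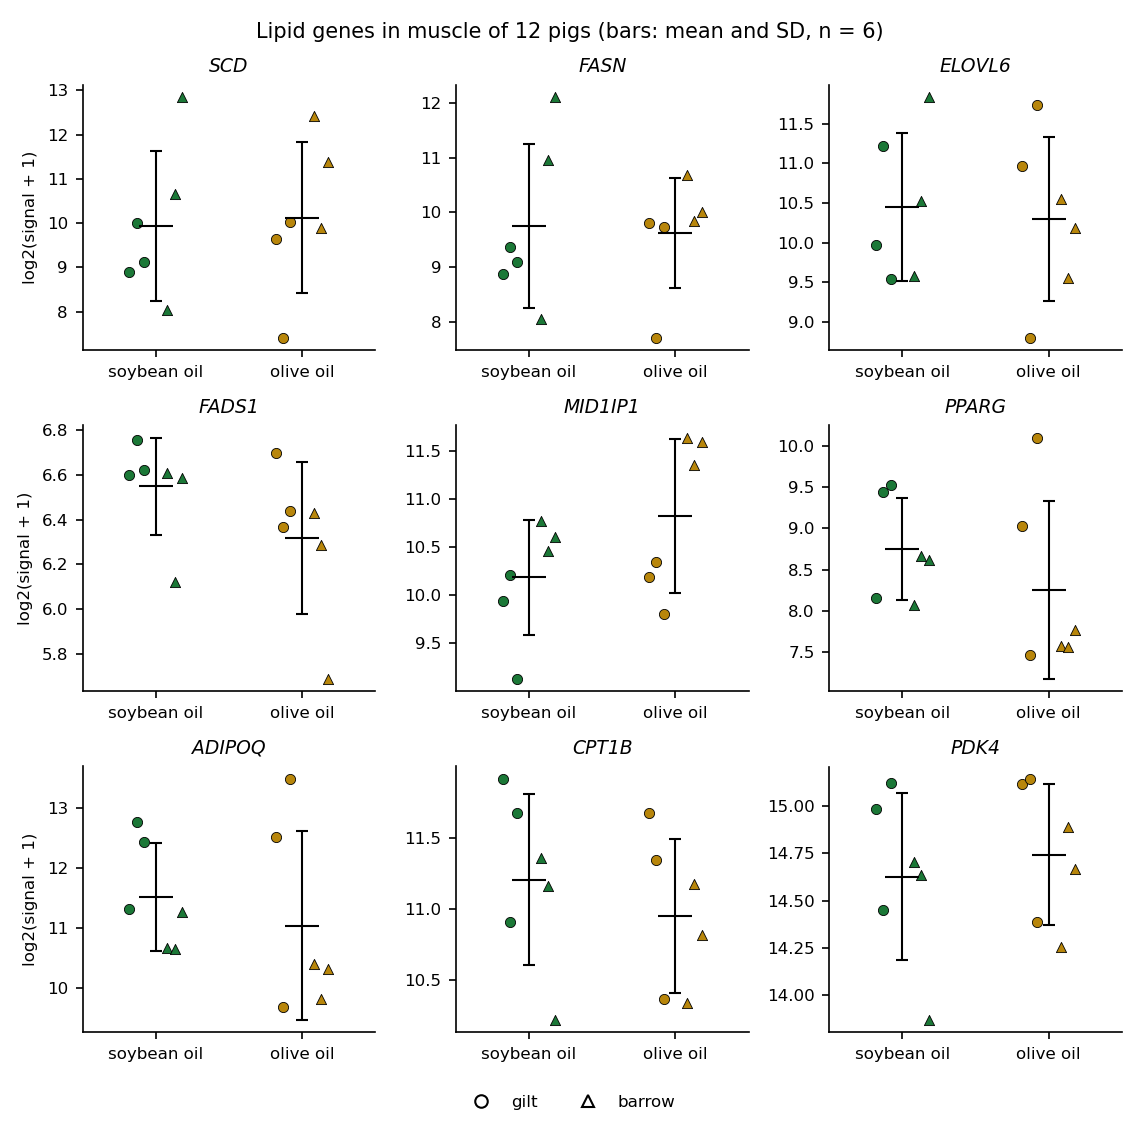
Signals of 9 lipid genes on a log2(signal + 1) axis, 1 panel per gene; circles are gilts, triangles are barrows, the horizontal mark is the mean of 6 pigs and the bar 1 SD. The oils overlap in every panel, and the olive oil barrows of MID1IP1 sit above the soybean oil barrows.

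Genes of triglyceride and cholesterol synthesis gave no calls either. Of 15 listed genes of triglyceride synthesis 13 were measured, with a median difference of 0.03 and 0 past the threshold. GPAM, which carries out the first step of glycerolipid synthesis, had the smallest p of these. Its signal ran from 180.5 to 437 with soybean oil (median 216) and from 136 to 304 with olive oil (median 182). The difference was 0.40 ± 0.19 (SE), and its other probe set above the filter gave 0.08. Differences of cholesterol genes were small at 1 probe set per gene. Of 26 listed 11 were measured, with differences from -0.19 for NSDHL to 0.15 for INSIG2 and a median of -0.04. The other probe set of NSDHL, also above the filter, gave 0.37.

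The PPAR receptors and their targets had differences of both signs, and none passed the test. PPARG, the receptor that drives adipocyte differentiation, ran from 268 to 734 with soybean oil (median 398) and from 175 to 1095 with olive oil (median 203). The 3 olive oil barrows were below every soybean oil pig, yet the highest pig of the 12 was an olive oil gilt, and the difference was 0.50 ± 0.41 (SE, n = 6 per oil; 95% interval -0.40 to 1.39). PPARA, the receptor tied to fatty acid oxidation, was below the filter and differed by 0.42 ± 0.97 (SE). Among classical targets, the difference was 0.25 ± 0.30 (SE) for CPT1B, which admits fatty acids to mitochondria, -0.11 ± 0.22 (SE) for PDK4, which blocks glucose oxidation, -0.14 ± 0.36 (SE) for the mitochondrial carrier UCP3 and 0.56 ± 0.50 (SE) for the lipase inhibitor ANGPTL4. PDK4 had the tightest interval of the 4, -0.60 to 0.37. Other probe sets above the filter gave -0.38 for PDK4, 0.19 for UCP3 and 0.13 for ANGPTL4. The coactivator PPARGC1A differed by 0.26 ± 0.54 (SE, n = 6 per oil; 95% interval -0.93 to 1.44). Of 17 measured PPAR targets of 27 listed, 0 passed, 0 had an unadjusted p under 0.05, and 11 lay above 0 with a median of 0.21. The 15 of them above the filter had a median of 0.14, with 9 above 0.

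No gene of fatty acid uptake or oxidation passed the test. LPL, the lipase that frees fatty acids from lipoproteins, ran from 5743 to 12586 with soybean oil (median 8699) and from 5068 to 12088 with olive oil (median 6563), a difference of 0.27 ± 0.22 (SE, n = 6 per oil; 95% interval -0.21 to 0.75). FABP3, the fatty acid carrier of muscle, had the smallest p (0.175, limma, unadjusted) of the 23 measured genes on a fixed list of lipid, fibre and growth genes; its signal ran from 12376 to 31051 with soybean oil (median 16745) and from 6133 to 34857 with olive oil (median 14643) and differed by 0.41 ± 0.28 (SE, n = 6 per oil; 95% interval -0.21 to 1.02). Of the 21 listed genes of mitochondrial fatty acid oxidation all 21 were measured, and their differences lay between -0.20 and 0.29 with a median of 0.05. Oxidative phosphorylation (46 measured, median 0.04), the tricarboxylic acid cycle (24 measured, median -0.02), glycolysis and glycogen (23 measured, median -0.01), slow fibre genes (12 measured, median -0.01) and fast fibre genes (11 measured, median -0.03) had 0 members past the threshold and 0 with an unadjusted p under 0.05. MYH7, the slow myosin heavy chain, ran from 28599 to 51992 with soybean oil (median 36057) and from 27354 to 48705 with olive oil (median 39915) and differed by -0.04 ± 0.19 (SE, n = 6 per oil; 95% interval -0.47 to 0.38). IGF1, the growth factor, differed by 0.02 ± 0.15 (SE, n = 6 per oil; 95% interval -0.32 to 0.35).

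Of 21 listed genes of peroxisomal fatty acid oxidation 12 were measured, and 0 passed the adjusted threshold. Their median difference was 0.09, with 7 above 0 and 5 below, from -0.35 for the transporter ABCD3 to 0.65 for ACOX3, and ACOX3 was the 1 member with an unadjusted p under 0.05. PEX2 and TMEM135 are not on that list; they are described here because they were among the genes with the smallest p. PEX2, a ubiquitin ligase of the peroxisomal membrane needed to import enzymes, ran from 242 to 325 with soybean oil (median 274) and from 149 to 239.5 with olive oil (median 206). The 6 soybean oil pigs all lay above the 6 olive oil pigs, and the difference was 0.48 ± 0.15 (SE, n = 6 per oil; 95% interval 0.15 to 0.81). TMEM135, a peroxisome-associated membrane protein, ran from 189.8 to 423 with soybean oil (median 249.6) and from 114 to 303 with olive oil (median 136) and differed by 0.78 ± 0.25 (SE, n = 6 per oil; 95% interval 0.23 to 1.33), with 2 soybean oil pigs above every olive oil pig. ACOX3, a peroxisomal oxidase of branched fatty acids, ran from 319.5 to 619 with soybean oil (median 475) and from 117 to 523 with olive oil (median 333) and differed by 0.65 ± 0.29 (SE), 1.19 in gilts and 0.12 in barrows.

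The 24 genes with the smallest p, 12 in each direction, were taken from probe sets above the filter with 1 gene symbol; PEX2, TMEM135 and MID1IP1 are among them. Their unadjusted p ran from 0.0020 to 0.0238 in limma and their adjusted p was 0.99989, so they are given as values. The smallest p was that of PXYLP1, a phosphatase that acts on the xylose of proteoglycan linkers, whose signal ran from 248 to 358 with soybean oil (median 304) and from 188 to 230.1 with olive oil (median 211). All 6 soybean oil pigs lay above all 6 olive oil pigs, and the difference was 0.51 ± 0.13 (SE, n = 6 per oil; 95% interval 0.23 to 0.78). SMG9, a component of nonsense-mediated decay, ran from 224 to 304 with soybean oil (median 252) and from 134 to 223 with olive oil (median 187), again with no overlap and a difference of 0.54 ± 0.16 (SE). AGMAT, annotated as agmatinase, ran from 120.2 to 342 with soybean oil (median 172) and from 47.4 to 118 with olive oil (median 106) without overlap; the difference was 0.95 ± 0.28 (SE, n = 6 per oil; 95% interval 0.33 to 1.57), and olive oil gilt 12 was far below the rest of its group. GAR1, a protein of the small nucleolar particles that modify ribosomal RNA, was the reverse case. It ran from 83.3 to 141 with soybean oil (median 125) and from 145 to 257 with olive oil (median 187), every soybean oil pig below every olive oil pig, a difference of -0.68 ± 0.19 (SE, n = 6 per oil; 95% interval -1.09 to -0.26).

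Over all probe sets the 12 pigs separated completely by oil in 23 with soybean oil higher (0.0958%) and 11 with soybean oil lower (0.0458%). Above the filter there were 12 and 4, out of 14399 probe sets. How many such separations chance gives was not computed, so the counts do not show more of them than chance gives. A complete separation of the pigs at a single gene is likewise given as a value only. Of those 16, 8 had 1 gene symbol: the 5 named above and TSNAX, CHMP1B and ACTR6, whose differences were 0.25 ± 0.11, 0.27 ± 0.13 and 0.24 ± 0.12 (SE). These 3 are named because their pigs did not overlap, which was seen in the values.

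**Figure D2:**
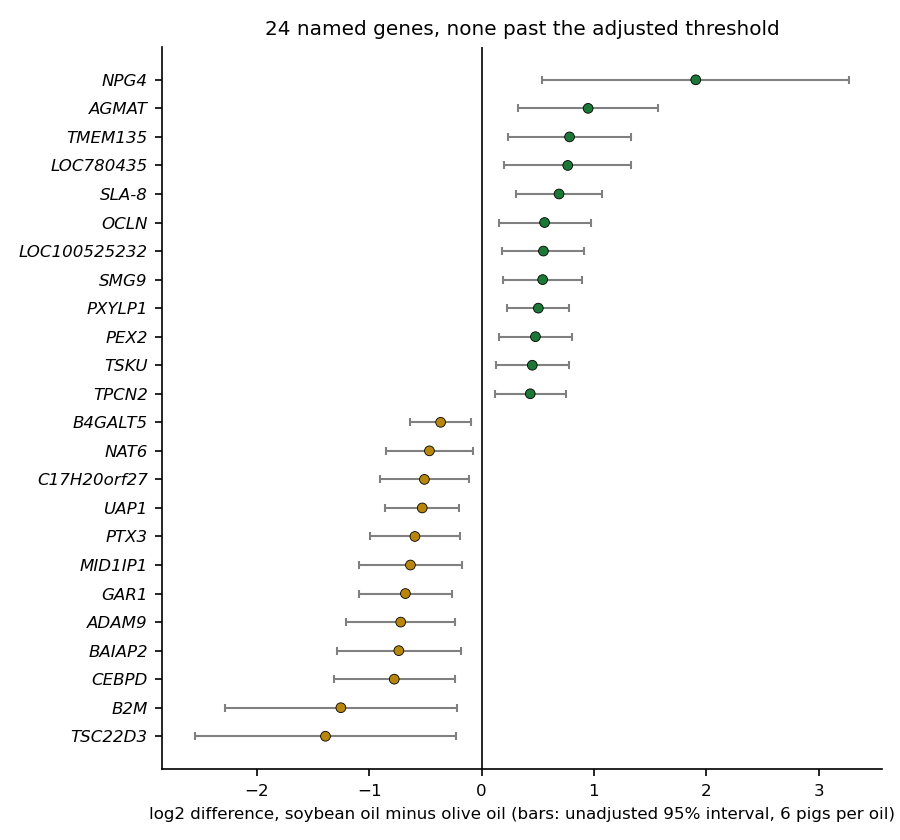
Log2 difference, soybean oil minus olive oil, of the 24 genes with the smallest p in either direction; points are the estimates from 6 pigs per oil and bars the unadjusted 95% intervals. Estimates run from -1.39 for TSC22D3 to 1.91 for NPG4, and none passed the adjusted threshold.

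Innate defence and antigen presentation genes appeared in both directions. SLA-8 is a swine class I histocompatibility gene, a family whose members present peptides on the cell surface. Its signal ran from 707 to 1281 with soybean oil (median 1038) and from 514 to 743 with olive oil (median 630.1), with 5 soybean oil pigs above every olive oil pig. The difference was 0.69 ± 0.17 (SE, n = 6 per oil; 95% interval 0.31 to 1.07), and its second probe set gave 0.65 ± 0.22 (SE). Class I genes are near-identical in sequence, so reads of one copy can include others. NPG4 encodes a protegrin, an antimicrobial peptide of pig neutrophils. It ran from 66.7 to 554 with soybean oil (median 231) and from 13.6 to 131 with olive oil (median 64.2) and differed by 1.91 ± 0.62 (SE, n = 6 per oil; 95% interval 0.54 to 3.27); protegrin genes are near-identical and its probe sets may not tell them apart, and 5 of the 6 gave differences between 1.53 and 2.67 while the sixth gave -0.44; the sixth and 1 of the 5 were below the filter. PTX3, a soluble pattern recognition protein, ran from 94.1 to 152 with soybean oil (median 121) and from 136 to 224 with olive oil (median 186) and differed by -0.59 ± 0.18 (SE), with -0.51 at its second probe set.

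B2M, the invariant partner of class I chains, was named through 1 discordant probe set. That probe set ran from 2304 to 10618 with soybean oil (median 4080.5) and from 4652 to 21754 with olive oil (median 12421), a difference of -1.25 ± 0.47 (SE, n = 6 per oil; 95% interval -2.29 to -0.22). The other 8 probe sets of B2M gave -0.29 to 0.97, and the 2 of highest mean signal gave -0.03 and 0.04. Of 19 measured antigen presentation genes 0 passed, and 2 (SLA-8 and the immunoproteasome subunit PSMB8, 0.40 ± 0.17 (SE)) had an unadjusted p under 0.05. Interferon response genes had a median of 0.20 with 21 of 24 above 0, 0 past the threshold and 1 (IRF9, 0.52 ± 0.24 (SE)) at an unadjusted p under 0.05. Over all 6765 genes 58.0% lay above 0 and 2.59% had an unadjusted p under 0.05. The interferon median was 0.00 in gilts and 0.44 in barrows. The mean log2 signal of the interferon genes per pig ran from 7.92 to 8.69 with soybean oil and from 7.57 to 8.83 with olive oil.

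CEBPD and CEBPB are transcription factors of fat cell differentiation and stress, and both had negative differences that did not pass the test. CEBPD ran from 1078 to 2869 with soybean oil (median 1814) and from 2346 to 4462 with olive oil (median 3142), with 5 soybean oil pigs below every olive oil pig. The difference was -0.78 ± 0.25 (SE, n = 6 per oil; 95% interval -1.32 to -0.24), -0.41 in gilts and -1.14 in barrows, and its other probe sets gave -0.31 and -0.94. CEBPB ran from 5048 to 11467 with soybean oil (median 8219) and from 8946 to 13964 with olive oil (median 10098) and differed by -0.49 ± 0.20 (SE). TSC22D3, a glucocorticoid-induced leucine zipper protein, differed by -1.39 ± 0.53 (SE, n = 6 per oil; 95% interval -2.55 to -0.23) at a probe set with a mean signal of 198 and by -0.23 ± 0.15 (SE) at its other one, with a mean signal of 3943. Immediate early and stress factors had a median of -0.22, with 3 of 23 measured genes above 0; 0 passed and 0 had an unadjusted p under 0.05. Their median was 0.06 in gilts and -0.46 in barrows. Over all 6765 genes 58.0% lay above 0. The mean log2 signal of the measured stress factors per pig ran from 10.11 to 10.41 with soybean oil and from 10.115 to 11.05 with olive oil.

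The remaining named genes covered several functions. UAP1, which makes the amino sugar donor UDP-N-acetylglucosamine, ran from 1555 to 2355 with soybean oil (median 1889.9) and from 2245 to 3945 with olive oil (median 2690.1), with 5 soybean oil pigs below every olive oil pig and a difference of -0.53 ± 0.15 (SE). ADAM9, a membrane metalloprotease, ran from 202 to 412 with soybean oil (median 248) and from 326 to 594 with olive oil (median 422). It differed by -0.72 ± 0.22 (SE), and its other 2 probe sets above the filter gave -0.26 and -0.09. OCLN, the tight junction protein occludin, ran from 209 to 443 with soybean oil (median 299) and from 169 to 282 with olive oil (median 193) and differed by 0.56 ± 0.19 (SE). Among the other genes higher with soybean oil, TSKU, a secreted leucine-rich protein, differed by 0.45 ± 0.15 (SE). TPCN2, a lysosomal cation channel, differed by 0.43 ± 0.14 (SE), while its other probe set, also above the filter, gave 0.016. The differences were 0.55 ± 0.17 (SE) for LOC100525232 and 0.77 ± 0.26 (SE) for LOC780435. Those lower with soybean oil were -0.74 ± 0.25 (SE) for BAIAP2, an adaptor of actin remodelling, -0.36 ± 0.12 (SE) for the galactosyltransferase B4GALT5, -0.46 ± 0.18 (SE) for the acetyltransferase NAT6 and -0.51 ± 0.18 (SE) for C17H20orf27, whose other 2 probe sets above the filter had the opposite sign.

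**Figure D3:**
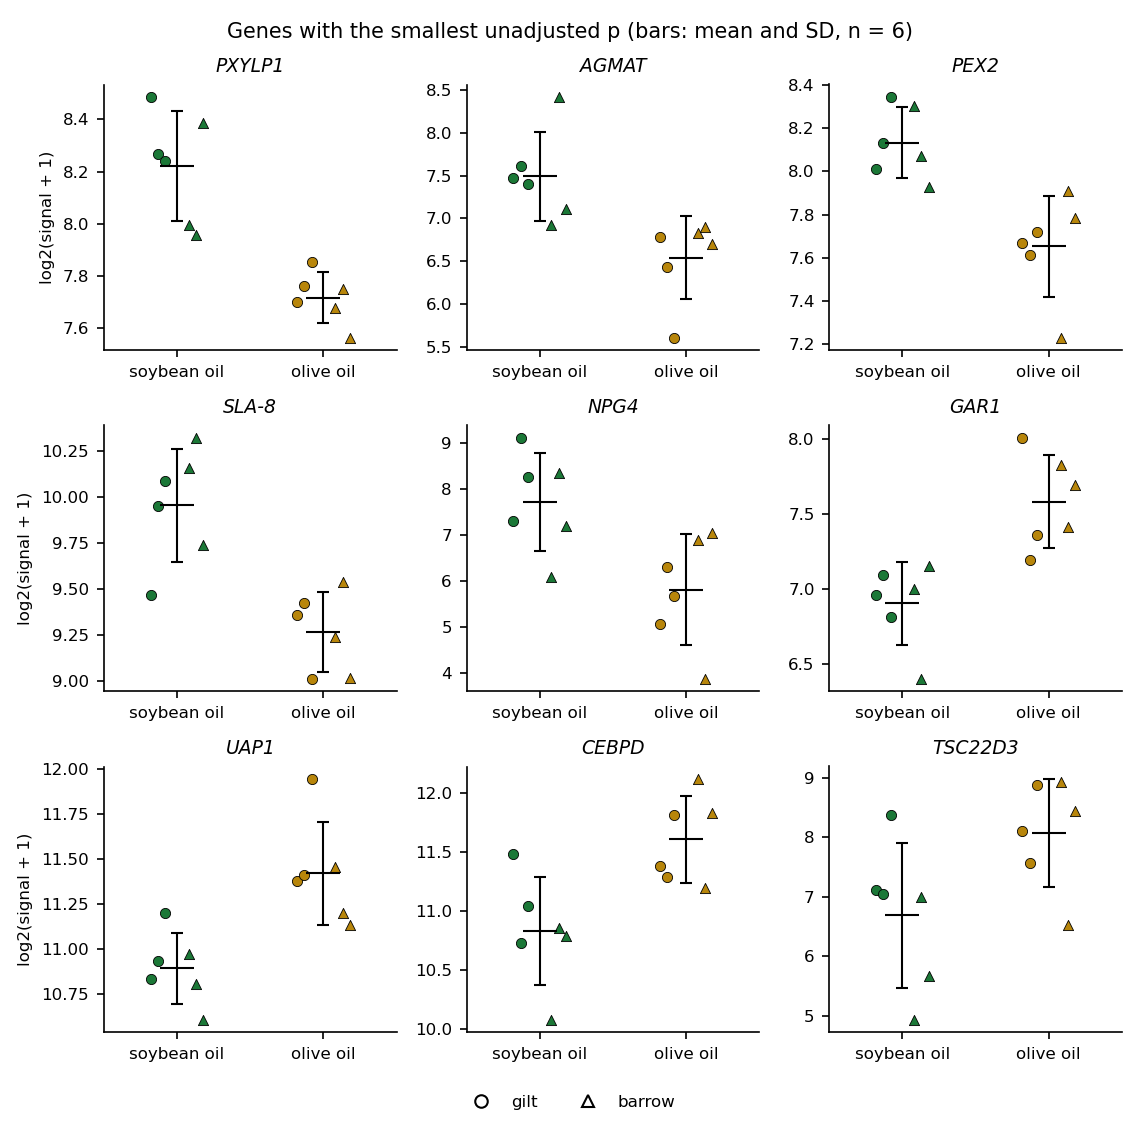
Signals of 9 of the 24 named genes on a log2(signal + 1) axis; circles are gilts, triangles are barrows, the horizontal mark is the mean of 6 pigs and the bar 1 SD. PXYLP1, AGMAT, PEX2 and GAR1 separate the oils completely, and the other 5 overlap.

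Per-pig levels of the markers of other cell types in the tissue overlapped between the oils. The mean log2 signal of the 17 measured adipocyte markers per pig ran from 9.45 to 10.34 with soybean oil and 9.12 to 10.86 with olive oil, and their median difference was 0.12, with 10 above 0 and 7 below. The 2 adipocyte markers with an unadjusted p under 0.05 were CEBPD and CEBPB, both with the negative differences given above. ADIPOQ, the adipocyte hormone adiponectin, ran from 1602 to 6967 with soybean oil (median 2497) and from 825 to 11439 with olive oil (median 1312) and differed by 0.48 ± 0.54 (SE, n = 6 per oil; 95% interval -0.71 to 1.67). Its highest and lowest pigs were both olive oil gilts. The fat cell carrier FABP4 differed by 0.26 ± 0.29 (SE) and leptin (LEP) by 0.34 ± 0.25 (SE). In whole tissue, fewer cells of a type and less RNA per cell cannot be told apart.

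Matrix, immune and vessel markers gave 0 calls. The 35 measured fibroblast and extracellular matrix genes had a median of 0.07. Their differences ran from -1.51 to 1.29, the latter for SPP1, with 23 above 0 and 12 below. Per-pig mean levels were 10.13 to 10.86 with soybean oil and 9.85 to 11.34 with olive oil. SPP1, the matrix cytokine osteopontin, ran from 219 to 787 with soybean oil (median 528) and from 66.0 to 753 with olive oil (median 124) and differed by 1.29 ± 0.49 (SE, n = 6 per oil; 95% interval 0.22 to 2.36). Of 33 measured leukocyte markers 14 were below the filter, the median was -0.07 and the per-pig mean levels were 6.72 to 7.65 with soybean oil and 6.92 to 7.80 with olive oil. ITGAM, an integrin of myeloid cells, ran from 24.7 to 76.1 with soybean oil (median 60.5) and from 7.03 to 58.1 with olive oil (median 17.2) and differed by 1.53 ± 0.41 (SE), while S100A8, a calcium-binding protein of neutrophils, differed by -1.12 ± 0.50 (SE); both were below the filter. Endothelial markers (19 measured) had a median of -0.02, smooth muscle and pericyte markers (10 measured) -0.12 and satellite cell and regeneration genes (13 measured) 0.11. The 4 measured erythrocyte genes had a median of -0.41, and the 2 of them above the filter had -0.31. Per-pig mean levels of the 4 were 5.48 to 7.57 with soybean oil and 6.35 to 7.90 with olive oil. The part of these markers in the values above was not tested.

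Genes of eicosanoids and redox defence were also without calls. Of 35 listed eicosanoid and phospholipase genes 15 were measured, with a median of 0.03. ALOX15, a lipoxygenase of linoleic and arachidonic acid, ran from 4.15 to 34.2 with soybean oil (median 8.48) and from 12.0 to 52.7 with olive oil (median 31.6), below the filter, and differed by -1.37 ± 0.48 (SE, n = 6 per oil; 95% interval -2.42 to -0.33). PTGS2, the inducible cyclooxygenase, was also below the filter and differed by -0.51 ± 0.60 (SE). Of 30 measured NRF2 targets and antioxidant genes, glutathione reductase GSR differed by 0.50 ± 0.20 (SE) and the glutathione transferase GSTM3 by -0.91 ± 0.35 (SE), the latter below the filter, and the median was 0.04. HMOX1, the haem oxygenase, ran from 190.4 to 449.7 with soybean oil (median 262) and from 148 to 665 with olive oil (median 477) and differed by -0.43 ± 0.38 (SE). In the list of LXR and RXR targets (12 measured, median -0.15), the cholesterol exporter ABCA1 differed by -0.32 ± 0.14 (SE). MGLL, which completes triglyceride breakdown, differed by -0.33 ± 0.14 (SE) among 19 measured uptake and transport genes with a median of 0.03.

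Stress, growth and housekeeping lists likewise had 0 members past the threshold. The medians were -0.09 for heat shock proteins and chaperones, 0.02 for the unfolded protein response, -0.11 for atrophy and FOXO targets, -0.07 for insulin and growth factor signalling, -0.09 for the circadian clock and -0.02 for 59 cytosolic ribosomal proteins. RPL26 was the single ribosomal gene with an unadjusted p under 0.05, at a dim probe set (-0.64 ± 0.26 (SE)).

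**Figure D4:**
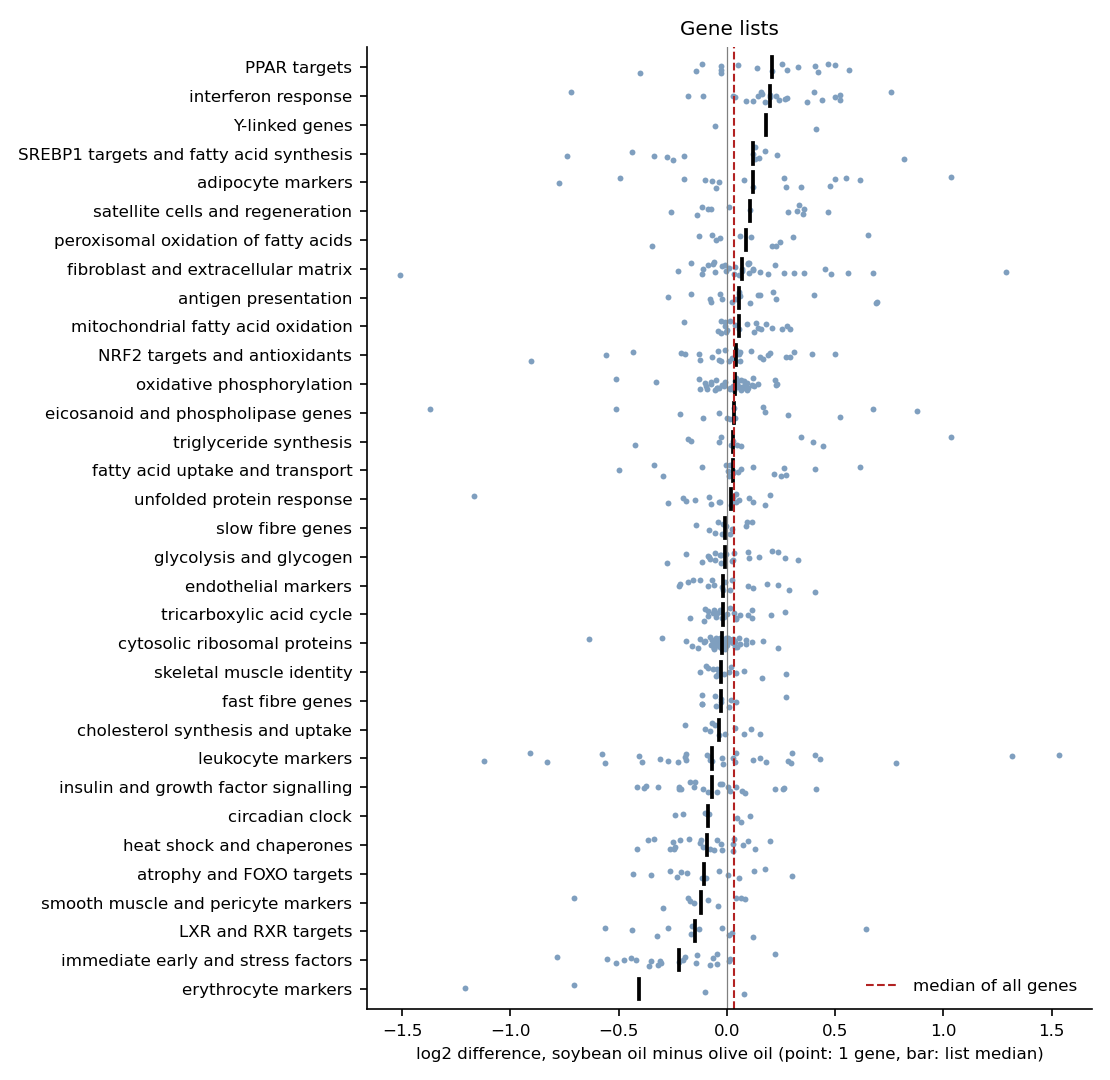
Log2 difference, soybean oil minus olive oil, of every measured gene in 33 lists; a point is a gene, the black bar the list median, the dashed line the median of all genes (0.03). List medians run from -0.41 for 4 erythrocyte genes, 2 of them above the filter, to 0.21 for PPAR targets. The 15 PPAR targets above the filter had a median of 0.14.

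Each sex was then compared on its own, 3 pigs against 3, with the spread of all 12 arrays. In gilts limma called 0 probe sets (0.0%) and 1093 (4.55%) had an unadjusted p under 0.05. In barrows it called 2 (0.00833%) and 1042 (4.34%) had an unadjusted p under 0.05. Both calls were dim probe sets without a gene symbol. The one with the lower p read 3.05 to 8.83 in soybean oil barrows and 64.4 to 70.4 in olive oil barrows, a difference of -3.29 (limma, adjusted p = 0.0196), and in gilts 32.6 to 40.7 against 46.8 to 64.6. The other differed by -2.99 in barrows (limma, adjusted p = 0.0200) and by 1.20 in gilts. It was also the 1 probe set (0.00417%) whose oil effect differed between the sexes, by -4.19 (barrows minus gilts; limma, adjusted p = 0.0431), where 1158 (4.83%) had an unadjusted p under 0.05. With the signal filter or with all 24 arrays in the fit, 0 probe sets were called in barrows and 0 for the difference between the sexes.

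These counts turned on single pigs. In gilts there was 1 call without pig 3 and there were 5 without pig 12. In barrows there were 0 calls without pig 4, 7, 9, 13 or 17, 1 without pig 12 or 19, 4 without pig 18 and 8 without pig 14, of which a B2M probe set was above the filter. Without pig 22 there were 2 other calls, LEF1 and a probe set without a symbol, both below the filter. For the difference between the sexes there were 0 without pig 4, 7, 9, 12, 13, 18, 19 or 22 and 2 without pig 11, and without pig 14 or 17 the 1 call was another probe set.

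Differences in gilts and barrows more often had opposite signs than the same sign. The gilts and barrows are separate pigs, so the 2 comparisons share no array. Of 319 probe sets above the filter with an unadjusted p under 0.05 in gilts, 129 (40.4%) had the same sign in barrows and 6 also had an unadjusted p under 0.05 there. Of 353 such probe sets in barrows, 156 (44.2%) had the same sign in gilts. Over all 14399 probe sets above the filter, 6402 (44.5%) had the same sign, and the correlation across them was -0.11; probe sets are not independent, and each sex rests on 3 pigs per oil. The median size of a difference was 0.17 in each sex. The widest split of a list median was that of the 4 erythrocyte genes, 0.04 in gilts and -1.14 in barrows. Only 2 of the 4 were above the filter, among them ALAS2, the haem synthesis enzyme of red cells, which gave 0.10 and -1.52. The barrow medians of interferon response and immediate early genes given above come from the same 6 barrows, and the part of erythrocyte RNA in them was not tested. Other list medians also had opposite signs in gilts and barrows: -0.24 and 0.26 for leukocyte markers, -0.13 and 0.31 for antigen presentation, and -0.08 and 0.32 for matrix genes. None of the genes named here by symbol passed the test of a difference between the sexes (lowest adjusted p = 0.965, limma).

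**Figure D5:**
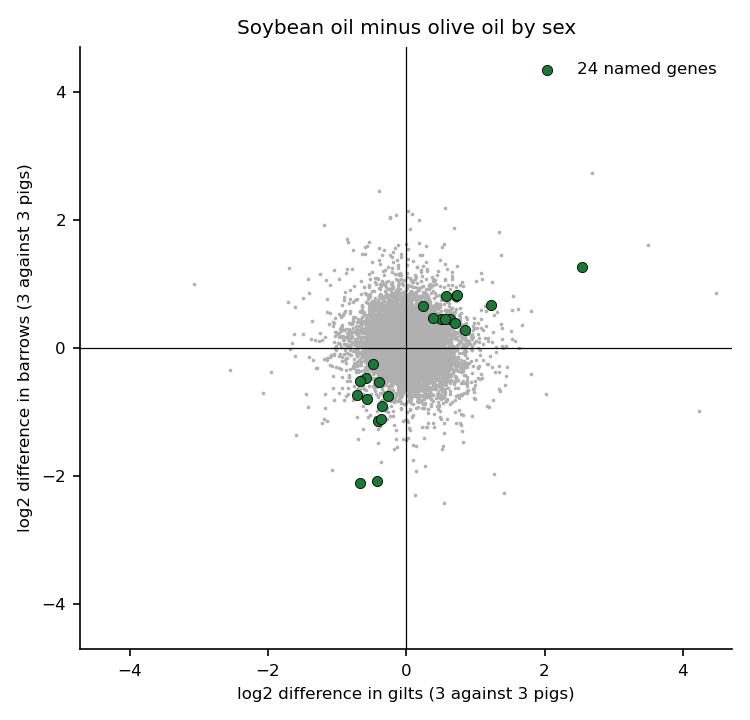
Log2 difference, soybean oil minus olive oil, in gilts (horizontal axis) against barrows (vertical axis) for 14399 probe sets above the filter; each axis rests on 3 pigs per oil, and filled points are the 24 named genes. The grey cloud shows no rising trend (correlation -0.11), and all 24 named genes, which were picked on the average over gilts and barrows, have the same sign in each sex.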

How the data were processed

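Probe set signals of the 24 arrays were deposited by the authors as linear intensity. Their summarisation is not stated in the labels. On every array the mean after trimming 2% at each end was 500.1 to 500.2, so arrays had been scaled and not quantile normalized. Of 24123 probe sets, 124 were controls; 10069 of the others had 1 gene symbol, 198 several and 13732 none. Symbols came from the platform annotation, and 9961 were found in RefSeq. All columns had a sample.

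log2(signal + 1) of 12 arrays was fitted with limma 3.58.1 in R 4.3.3 (lmFit, eBayes; oil plus sex, or 4 group means for each sex and for the interaction), two-sided, with Benjamini-Hochberg adjustment over 23999 probe sets. The code of the fit was tested on simulated arrays with independent noise, which does not test how the real arrays vary. Precision is limited by the 6 pigs per oil.

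Named genes have 1 symbol and a mean signal of at least 94.1: the 12 largest differences past the threshold in each direction, filled up by the smallest p; besides 27 fixed genes and, per list, the 2 members with the smallest p. In lists each gene has its probe set of highest mean. The comparison, genes and lists were chosen with earlier results of these data known. Alternatives were other filters, scalings, pseudocounts, variance models and arrays.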

Additional observations from a re-analysis of the deposited data

Results flagged for a closer look

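In 14 of 218 groups of 6 pigs of one oil, 1 pig stood apart from the other 5 by Dixon's criterion at 95%. The criterion sets the gap to the nearest pig against the range of the group, both on the scale of log2(signal + 1). Chance gives about 1 in 20. The signals printed below are in linear units, on which the gaps of low pigs look smaller against the range. Among soybean oil pigs, pig 3 was lowest for BAIAP2 (139.9, the others 200.6 to 249) and for ACACA (7.77, the others 31.0 to 62.4). Pig 14 was lowest for FADS1 (68.7, the others 94.9 to 107) and for ITGAM (24.7, the others 58.6 to 76.1). Pig 19 was lowest for ANGPTL4 (181, the others 637 to 1086) and for PEX19 (459, the others 639 to 779). Pig 11 was highest for SDF2L1 (30.1, the others 9.65 to 13.0) and lowest for MYLK (11.9, the others 44.1 to 82.9).

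Among olive oil pigs, pig 12 was lowest for AGMAT (47.4, the others 85.6 to 118), HSP90AB1 (8808, the others 11803 to 13613) and NDUFA2 (2989, the others 3851 to 4248). Pig 7 was lowest for FASN (207, the others 847 to 1636) and for S100A8 (22.2, the others 32.5 to 39.6). Pig 4 was lowest for RPL26 (65.9, the others 97.3 to 119).

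A probe set without a gene symbol was the 1 feature whose oil effect differed between the sexes (-4.19, barrows minus gilts; limma interaction, adjusted p = 0.0431). Its signals were 0.58 to 0.98 in soybean oil barrows, 10.4 to 15.8 in olive oil barrows, 16.3 to 41.3 in soybean oil gilts and 9.81 to 11.3 in olive oil gilts, all below the signal filter of 94.1.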

How the results depend on the processing

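The count of 0 probe sets between the oils stayed 0 in all alternatives that keep 12 or 24 arrays and without pigs 11 and 12; leaving out 1 pig gave 0 to 1. In gilts the count was 0, with 0 to 5 on leaving out 1 pig. In barrows it was 2, and 0 with the signal filter, 0 with all 24 arrays, 1 with a pseudocount of 16 and 0 to 8 on leaving out 1 pig. For the difference between the sexes it was 1, and 0 with the filter, with all 24 arrays, with median centring or with a pseudocount of 16, and 0 to 2 on leaving out 1 pig. The causes of these changes in the counts were not tested. All 561 recomputed list medians moved by less than the spread between pigs. Of 2491 recomputed differences of named genes 39 changed sign, and none of the 12 genes concerned passed the threshold. IGF1 became -0.017 with quantile normalization, -0.041 with median centring, -0.020 with array weights and -0.0088 without pigs 11 and 12. MYH7 became 0.015 with quantile normalization, TNNI1 -0.10 without pigs 11 and 12, and SRY 0.019 with array weights and 0.14 without pigs 11 and 12. On leaving out 1 pig the ranges were -0.66 to 0.41 for SCD, -0.28 to 0.63 for FASN, -0.19 to 0.47 for ELOVL6, -0.52 to 0.12 for ACACA, -0.20 to 1.08 for PPARA, -0.21 to 0.51 for PPARGC1A, -0.23 to 0.013 for PDK4, -0.32 to 0.11 for UCP3, -0.17 to 0.036 for MYH7, -0.0865 to 0.087 for IGF1, -0.014 to 0.20 for TNNI1 and -0.33 to 0.13 for SRY. No paired analysis was possible because the running pig numbers are not shared between groups. Signals below the filter, and the 3 pigs per oil and sex, limit what can be detected.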
